A study of Homo sapiens with 6 samples.

Results

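The respiratory chain genes described here are the 88 rows, of 20811 in the expression table, whose symbols begin with NDUFA, NDUFB, NDUFC, NDUFS or NDUFV and a number, with UQCR, with ATP5 or with COX4 to COX8, or are SDHA, SDHB, SDHC or SDHD. The rule reads the symbols and no expression value. Of the 88 genes, 79 encode subunits of the 5 complexes: 36 of complex I, 4 of complex II, 8 of complex III, 16 of complex IV and 15 of complex V. The other 9 share the name without being a subunit of the assembled complexes and are described apart. The symbols are those of the table, and several have since been renamed (ATP5G2 is now ATP5MC2, and NDUFA4 is COXFA4).

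The genes were measured in HuCCT1, a human intrahepatic cholangiocarcinoma (iCCA) line, in 2 forms. HuCCT1/CD90+ cells carried the human THY1-CMV-GFP lentivirus, THY1 being the gene of the surface glycoprotein CD90. HuCCT1/CD90- cells carried the Lenti-CMV-GFP-2A-Puro-Blank lentivirus, so that cells of both lines had received a GFP vector, at the same MOI of 40. The comparison of the lines asks which RNAs differ with the overexpression of CD90. There were 3 libraries of each line, sequenced from 1 amplicon per gene, and values are RPM, the reads of a gene scaled to the same library total. Whether a line is 1 clone or a pool, and whether its 3 libraries came from separate cultures, is not given in the sources used here, so the p-values measure the spread between these libraries, which may be technical.

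Complexes I to IV form the electron transport chain of the inner mitochondrial membrane. Complex I oxidizes NADH and complex II succinate, complex III passes the electrons from ubiquinol to cytochrome c, and complex IV passes them to oxygen. Complexes I, III and IV pump protons, and complex V, the ATP synthase, uses the proton gradient to make ATP. Some subunits of complexes I, III, IV and V are encoded in mitochondrial DNA and are not analysed here, while the nucleus encodes all the rest. In tumor cells this chain is known for its balance with glycolysis as the source of ATP.

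Many nuclear genes of the chain are known to carry sites of NRF1, a transcription factor of mitochondrial biogenesis, and of ETS factors. The 250 bases before the gene start were read from RefSeq (GRCh38.p14), which held 69 of the 88 genes by symbol. The NRF1 letters GCGCANGCG, or CGCNTGCGC on the other strand, stood in 18 of these 69 (26.1%), against 7.02% of all 27305 promoters of that length and 9.72% of 15843 promoters of protein-coding genes. The ETS letters CCGGAAG, or CTTCCGG, stood in 16 (23.2%), against 8.82% and 11.8%. The sequences of 4 genes whose RNA differed between the lines are shown, 2 that were lower and 2 that were higher in HuCCT1/CD90+, each 5′ to 3′ on the strand of the gene, with the NRF1 letters in capitals.
ATP5G2, chr12:53676084-53676333, minus strand: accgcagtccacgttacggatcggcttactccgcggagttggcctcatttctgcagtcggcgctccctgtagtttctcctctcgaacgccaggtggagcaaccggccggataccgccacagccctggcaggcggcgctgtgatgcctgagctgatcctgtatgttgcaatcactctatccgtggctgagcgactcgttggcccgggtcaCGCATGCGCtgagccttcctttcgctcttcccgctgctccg
UQCRC1, chr3:48609647-48609896, minus strand: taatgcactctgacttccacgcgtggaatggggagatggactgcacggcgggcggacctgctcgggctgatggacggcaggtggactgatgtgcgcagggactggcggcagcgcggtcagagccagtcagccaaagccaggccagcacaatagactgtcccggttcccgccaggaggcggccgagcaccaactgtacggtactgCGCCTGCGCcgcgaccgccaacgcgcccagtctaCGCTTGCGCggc
NDUFA3, chr19:54102605-54102854, plus strand: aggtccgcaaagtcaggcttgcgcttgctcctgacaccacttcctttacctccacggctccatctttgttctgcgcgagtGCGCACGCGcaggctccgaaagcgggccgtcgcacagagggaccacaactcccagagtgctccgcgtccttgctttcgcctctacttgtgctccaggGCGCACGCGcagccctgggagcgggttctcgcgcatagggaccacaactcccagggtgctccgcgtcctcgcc
NDUFB8, chr10:100529924-100530173, minus strand: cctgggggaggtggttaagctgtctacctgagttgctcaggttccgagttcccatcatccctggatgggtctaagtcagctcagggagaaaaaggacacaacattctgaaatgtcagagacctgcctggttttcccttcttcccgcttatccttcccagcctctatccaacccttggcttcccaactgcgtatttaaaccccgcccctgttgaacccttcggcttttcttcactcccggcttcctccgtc
The match of ATP5G2 began 41 bases before the start, those of UQCRC1 46 and 12 bases before it and those of NDUFA3 170 and 73 bases before it, while the window of NDUFB8 held none. By the fold change rule given below, the NRF1 letters were in all 3 genes lower in HuCCT1/CD90+, in 3 of the 10 higher genes with a promoter sequence and in 12 of the 56 others. The letters therefore stood before genes of both directions. The ETS letters were in 0 of these 3 lower genes, in 1 of the 10 higher and in 15 of the 56 others. A match of letters is a description of the sequence and not a measured binding site.

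Each library held 8587634 to 10551516 reads on genes, and 3 reads corresponded to 0.284 to 0.349 RPM. THY1 itself had 0, 1 and 0 reads in HuCCT1/CD90-, against 435, 445 and 680 in the HuCCT1/CD90+ line. Of 8 cholangiocyte markers, all detected, 6 were higher in HuCCT1/CD90+, with the summed level of the list at 8227 to 9328 RPM in the HuCCT1/CD90- line, against 11192 to 11975 RPM. The largest differences in this list were in CDH1 (log2 difference 3.89) and EPCAM (3.62), and KRT18 had 0.97. Of 6 fibroblast markers, 4 were lower (summed level 36.7 to 59.2 against 19.5 to 24.1 RPM), led by DCN (-2.77, blocked adjusted p = 0.0859) and LUM (-1.69), and 0 were higher, with limma also at an unadjusted p under 0.05. COL1A2 and COL3A1, also lower, averaged under 1 RPM in either line, and COL1A1 was not called (13.5 ± 2.21 against 14.2 ± 0.186 RPM). Of the fibroblast markers edgeR called 2 lower and 0 higher and DESeq2 called 4 and 0. Of 4 endothelial markers CDH5 was lower (-3.76, list 14.5 to 23.2 against 0.643 to 1.63 RPM), and of 4 hepatocyte markers APOA1 and SERPINA1 were lower (-1.76 and -1.13, the second with a blocked adjusted p = 0.0712, list 3.59 to 5.89 against 0 to 0.751 RPM). The endothelial marker VWF went the other way at a few reads (0.37, adjusted p = 0.0909). At an unadjusted p under 0.05 limma had 1 endothelial marker higher and 2 lower, and edgeR and DESeq2 each called 0 higher and 2 lower. Of 4 leukocyte markers only CD68 was higher (0.85, list 46.5 to 55.9 against 83.9 to 100.5 RPM), and PTPRC and CD3E were at or under 3 reads in every library. With the replicate number as a block, 4 cholangiocyte genes were higher, and of the lower genes 1 fibroblast, 1 hepatocyte and 1 endothelial gene were called. The summed levels of these 5 lists did not overlap between the lines, and their part in the results below was not tested. All libraries are of 1 cell line, so these lists describe RNA of HuCCT1 cells and do not count cells of other types. In such bulk libraries, fewer cells with a marker and less RNA per cell cannot be told apart.

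The respiratory chain genes did not all move in the same direction between the lines. By an adjusted p of at most 0.05 (limma, all 20811 genes), 15 of the 88 (17%) were higher in HuCCT1/CD90+ and 8 (9.09%) were lower, where 9.41% of all genes were higher and 9.52% lower. At the thresholds named in the methods of the study, a fold change of at least 1.5 and a p-value of at most 0.05, 14 (15.9%) were higher and 3 (3.41%) lower, against 10.1% and 9.98% of all genes. Since 6 of the 88 genes had at most 3 reads in every library and many other genes of the table were silent, the counts were also read among the 8794 genes that averaged 10 RPM or more, which hold 71 of the 88. There 15 (21.1%) were higher and 6 (8.45%) lower, where 14.3% and 14.1% of all such genes were, and at the fold change thresholds 14 (19.7%) were higher and 3 (4.23%) lower, where 14.9% and 13.2% were. By adjusted p over all genes, the lower share was near that of the table and the higher share was above it. Genes that averaged 1 RPM or more were then centred on their chromosomal neighbours, as described below. After this, 5 of the 88 were higher and 5 lower (5.68% each), where 7.83% and 8.13% of all genes were. These shares are a description, since genes are not independent replicates.

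Most differences were small. The median log2 difference was 0.12 over the 82 genes with more than 3 reads in at least 1 library, 49 of them above and 33 below 0, and 0.14 over the 71 that averaged 10 RPM or more, beside 0.01 over all 8794 genes at that level. Over the 82 genes it was 0.0782 without HuCCT1/CD90- library 3. Summed over all 88 genes, the libraries held 11485, 10419 and 10883 RPM in HuCCT1/CD90- and 12215, 11039 and 10672 RPM in HuCCT1/CD90+. The sums of the lines overlapped and their means (10929 ± 534 and 11309 ± 806, SD, n = 3) differed by less than the SD of the HuCCT1/CD90+ libraries. Each gene was read through its own amplicon, so such a sum weights genes by amplicon yield and levels are not compared between genes.

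**Figure D1:**
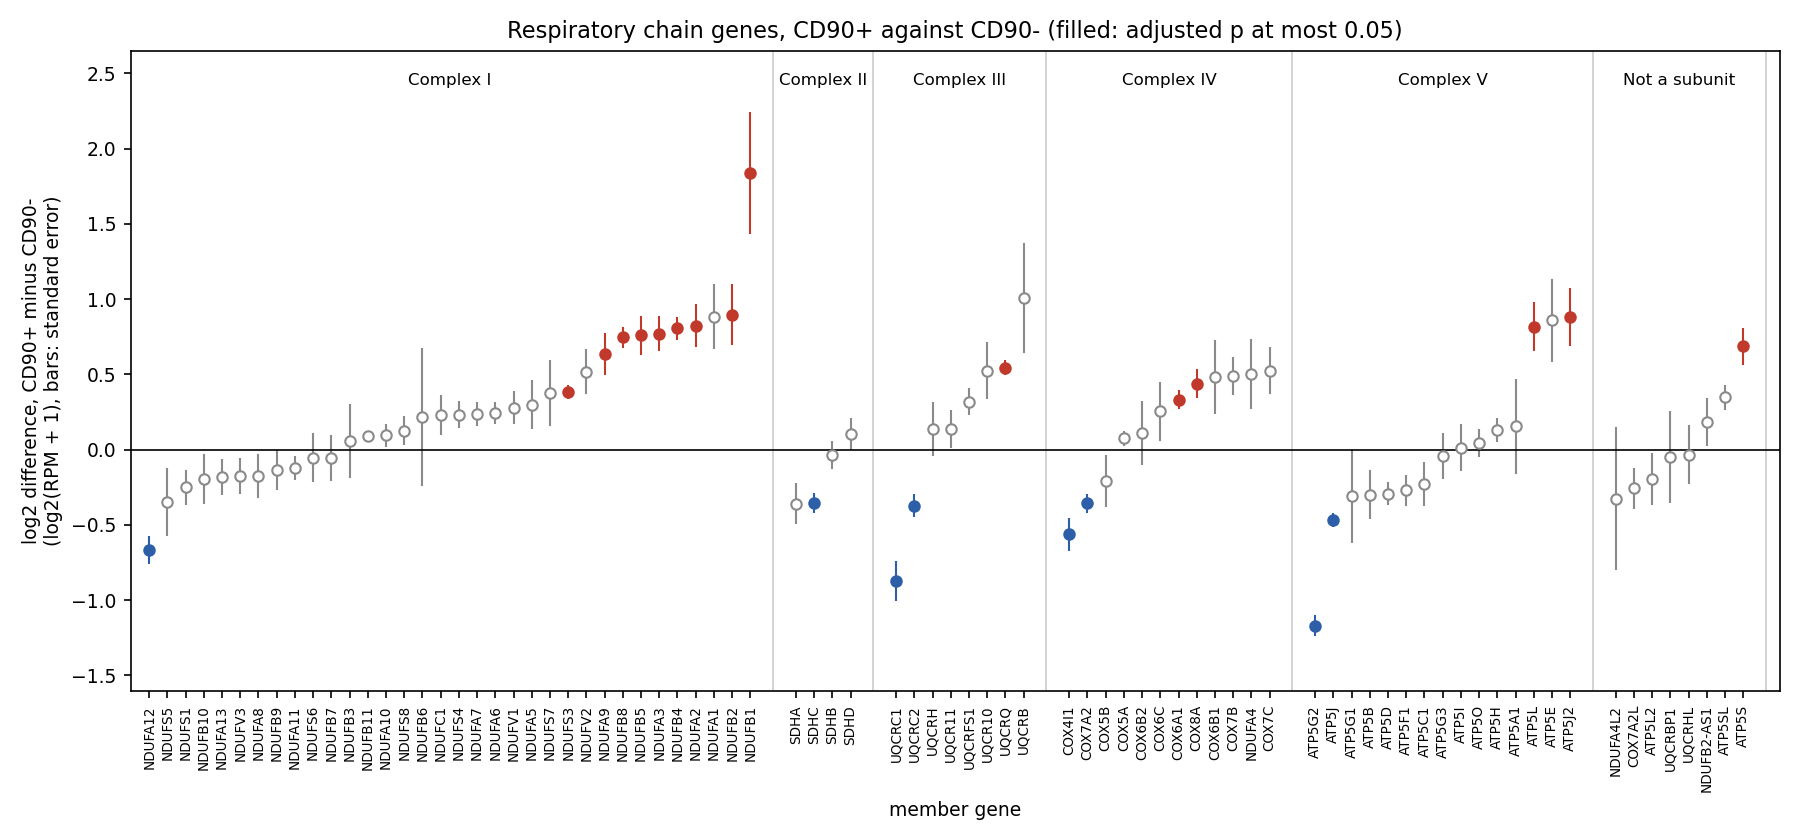
Log2 difference of 81 of the 82 detected genes (y axis, HuCCT1/CD90+ minus HuCCT1/CD90- on log2(RPM + 1), bars: standard error) by complex, sorted within it. Filled points passed the adjusted p threshold of 0.05, red for higher and blue for lower in HuCCT1/CD90+, and the filled points run from ATP5G2 at -1.17 to NDUFB1 at 1.84.

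The calls depended on the number of libraries and on the replicate numbers, which were taken to pair the libraries of the lines. With the replicate number as a block, 8 genes were higher and 3 lower by adjusted p (9.09% and 3.41%, where 6.72% and 6.4% of all genes were), 7 of these 11 being among the 23 called without it. Without HuCCT1/CD90- library 1, 2 or 3 the counts were 6, 4 and 9 higher (of all genes 6.69%, 6.38% and 6.04%) and 3, 3 and 6 lower (7.4%, 6.43% and 5.81%). Without HuCCT1/CD90+ library 1, 2 or 3 they were 5, 4 and 6 higher (of all genes 6.48%, 6.46% and 5.54%) and 4, 4 and 2 lower (5.66%, 5.79% and 5.02%). The genes that kept an adjusted p of at most 0.05 whichever library was left out were 5 of the 23, namely ATP5G2, ATP5J, NDUFB4, NDUFB8 and UQCRQ. Count tests on the recovered reads gave 24 higher and 6 lower genes with edgeR and the same numbers with DESeq2, and 21 of the 23 genes were among them in each. These were 31.2% and 7.79% of the 77 respiratory chain genes tested with edgeR, where 22.2% of all 12070 genes tested were higher and 22.2% lower, and 29.3% and 7.32% of 82 with DESeq2, where 19% and 18% of 14399 were. In what follows, an adjusted p is from limma without the block, and the blocked adjusted p is that with it, given for a respiratory chain gene where it changed the call.

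Subunits listed as core were set beside the rest. The core list held the conserved nuclear-encoded subunits of complex I, all of complex II, the Rieske and core proteins of complex III, COX4I1, COX5A and COX5B of complex IV and the alpha, beta and gamma subunits of complex V. Of these 20 core subunits, 1 was higher and 4 were lower, with a median log2 difference of -0.12 (9 above and 11 below 0). Of the 59 other subunits, 13 were higher and 4 lower, with a median of 0.22 over the 54 detected (37 above and 17 below 0). The difference between these groups was not tested, and their ranges overlapped widely, from -0.88 to 0.52 and from -1.17 to 1.84. Of all genes 9.41% were higher and 9.52% lower, and 14.3% and 14.1% of those that averaged 10 RPM or more. The lower core genes, SDHC, UQCRC1, UQCRC2 and COX4I1, did not pass with the block, and neither did the higher one, NDUFS3. After centring on neighbours only UQCRC1 of these was called. Of all 15 higher and 8 lower genes, 5 and 2 kept the call with the block, and 4 and 5 after that centring (COX7A2 uncentred).

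Complex I, the NADH dehydrogenase, is the largest of the complexes. Of its 36 genes, 9 were higher, 1 was lower and 26 were not called, and all 10 came from the NDUFA, NDUFB and NDUFS families. Summed over the complex, the libraries held 3385, 3152 and 3178 RPM in HuCCT1/CD90- and 3847, 3687 and 3498 RPM in HuCCT1/CD90+, so that the lines did not overlap.

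The NDUFB genes encode accessory subunits of the membrane arm, which hold its proton-pumping modules together. Of 11, 5 were higher and 0 lower, also by edgeR and DESeq2, and at an unadjusted p under 0.05 limma had 6 higher and 0 lower. Their summed level was 1001 ± 50.3 RPM in HuCCT1/CD90-, and it was 1311 ± 91.7 RPM in HuCCT1/CD90+ (SD, n = 3), a ratio of 1.31. NDUFB8 was at 182, 177 and 196 RPM in HuCCT1/CD90- and at 338, 298 and 299 RPM in HuCCT1/CD90+. The libraries of the 2 lines were well apart, and the log2 difference was 0.75 ± 0.07 (SE, adjusted p = 0.00495). It passed the test with the block and whichever library was left out, and the 50 nearest genes on its chromosome had a median difference of 0.01. NDUFB4 was at 103, 97.4 and 112 RPM against 196, 182 and 171 RPM, with a log2 difference of 0.81 ± 0.08 (adjusted p = 0.00551, blocked adjusted p = 0.0505).

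NDUFB5, NDUFB4 and NDUFB2 stood on chromosomes where most neighbours were higher too. NDUFB5 rose from 81.5 ± 12.5 to 138 ± 10.5 RPM (log2 difference 0.76 ± 0.13, adjusted p = 0.0240, blocked adjusted p = 0.102, up to 0.0790 with a library left out). The median difference of the 50 nearest genes on chromosome 3 was 0.56 for NDUFB5 and 0.58 for NDUFB4, and with it taken away their differences were 0.20 and 0.22 (adjusted p = 0.431 and 0.149). NDUFB2, on chromosome 7, rose from 29.3 ± 5.44 to 55.5 ± 10.4 RPM (0.90 ± 0.20, adjusted p = 0.0494, blocked adjusted p = 0.142, up to 0.132 with a library left out). Its neighbours had a median of 0.49, which left 0.40 (adjusted p = 0.302). GENCODE names 12 pseudogenes after NDUFB4, and other called genes have them too (6 for ATP5L, 5 each for ATP5J2 and NDUFA3, 4 for SDHC, 3 for ATP5G2). Reads from such copies could not be told apart here.

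NDUFB1, a small subunit with a single membrane span, had the largest ratio among the 23 genes called. Its libraries were at 8.62, 8.99 and 17.9 RPM in HuCCT1/CD90- and at 64.2, 33.4 and 35.8 RPM in HuCCT1/CD90+. The means, 11.8 ± 5.22 and 44.5 ± 17.1 RPM (SD, n = 3), stood in a ratio of 3.76, and the log2 difference was 1.84 ± 0.41 (adjusted p = 0.0460, blocked adjusted p = 0.144). HuCCT1/CD90+ library 1 and HuCCT1/CD90- library 3 lay apart from the others of their lines. The difference was 1.55 without the former (adjusted p = 0.103) and 2.15 without the latter (0.0501), and it ranged up to an adjusted p of 0.133 over the libraries left out. Of the other 6 NDUFB genes, NDUFB11 (0.09 ± 0.03), NDUFB7 (-0.05 ± 0.15), NDUFB9 (-0.14 ± 0.13) and NDUFB10 (-0.19 ± 0.17) were within 0.20 of 0, and NDUFB3 and NDUFB6 were read at means of at most 1.99 RPM in either line.

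The NDUFA genes encode accessory subunits of both arms, and they diverged. Of 12, 3 were higher and 1 was lower. NDUFA3, a small membrane-arm subunit, was at 34.2, 28.8 and 30.4 RPM in HuCCT1/CD90- and at 61.6, 51.0 and 49.2 RPM in HuCCT1/CD90+ (log2 difference 0.77 ± 0.12, adjusted p = 0.0171, up to 0.0672 with a library left out). The rise also passed the test with the block. NDUFA2, a peripheral-arm subunit with a thioredoxin-like fold, rose from 10.3 ± 1.74 to 18.8 ± 1.76 RPM (0.82 ± 0.15, adjusted p = 0.0260, blocked adjusted p = 0.0553, up to 0.0815 with a library left out). NDUFA9, at the junction of the arms, rose from 73.4 ± 10.2 to 114 ± 13.1 RPM (0.64 ± 0.14, adjusted p = 0.0438, up to 0.129 with a library left out) and passed with the block.

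NDUFA12, which belongs to the peripheral arm, went the other way. It was at 61.6, 54.5 and 67.5 RPM in HuCCT1/CD90- and at 35.8, 39.7 and 38.5 RPM in HuCCT1/CD90+, with no overlap. The log2 difference was -0.67 ± 0.09 (adjusted p = 0.0141, blocked adjusted p = 0.0705, up to 0.0589 with a library left out), and its neighbours had a median of -0.12. NDUFA1, a membrane subunit essential for assembly, was at 70.1 ± 15.6 against 129 ± 19.3 RPM (0.88 ± 0.21), and its adjusted p of 0.0569 missed the threshold although its ratio of 1.84 was among the largest. The remaining NDUFA genes lay between -0.18 for NDUFA13 and 0.30 for NDUFA5, and NDUFA6 (0.24 ± 0.07) passed only with the block (0.0410).

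The NDUFS and NDUFV genes encode the core of the peripheral arm, with its flavin and iron-sulfur clusters, and a few accessory subunits. Of 11, 1 was higher and 0 were lower (2 and 1 at an unadjusted p under 0.05, 2 and 0 with edgeR and with DESeq2), and their summed level was 1141 ± 77.7 and 1174 ± 71.7 RPM. NDUFS3, a core subunit of the module that binds ubiquinone, was at 165, 148 and 165 RPM in HuCCT1/CD90- and at 209, 207 and 208 RPM in HuCCT1/CD90+ (0.38 ± 0.05, adjusted p = 0.0112, blocked adjusted p = 0.0508, up to 0.0523 with a library left out). Its neighbours on chromosome 11 had a median of 0.26, which left a difference of 0.13 (adjusted p = 0.189).

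Among the other core subunits of complex I, the flavoprotein NDUFV1 had a log2 difference of 0.28 (95% interval -0.01 to 0.57), and passed only with the block (0.0499). NDUFV2, which carries an iron-sulfur cluster, was at 30.3 ± 4.30 against 43.8 ± 5.56 RPM (0.52, 0.12 to 0.92, adjusted p = 0.0882). NDUFS1, the largest subunit, had -0.25 (-0.56 to 0.06). NDUFS7 and NDUFS8, which carry the last clusters before ubiquinone, had 0.38 (-0.21 to 0.97) and 0.12 (-0.13 to 0.38). These intervals are from the fit without the block. Within same-numbered libraries NDUFV1 and NDUFS7 were higher and NDUFS1 was lower in all 3 pairs.

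Complex II, the succinate dehydrogenase of the citric acid cycle, was the complex with the lowest ratio of summed levels. Its 4 genes summed to 539, 516 and 501 RPM in HuCCT1/CD90-, against 479, 444 and 401 RPM in HuCCT1/CD90+, a ratio of 0.851 with no overlap between the lines. SDHC, a membrane anchor, was at 198, 189 and 204 RPM against 167, 151 and 145 RPM (-0.35 ± 0.07, adjusted p = 0.0295, blocked adjusted p = 0.0919, up to 0.0977 with a library left out). Its 50 nearest genes on chromosome 1 had a median of -0.35, and -0.01 was left after centring on them (adjusted p = 1). SDHA, the flavoprotein that oxidizes succinate, was at 212, 183 and 171 RPM against 169, 142 and 130 RPM, each pair of same-numbered libraries differing in the same direction. Its log2 difference of -0.36 ± 0.14 did not pass without the block (adjusted p = 0.167) and passed with it (0.0215). SDHB, the iron-sulfur subunit, had -0.04 (95% interval -0.29 to 0.22), and SDHD, the other anchor, had 0.11 (-0.18 to 0.39).

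**Figure D2:**
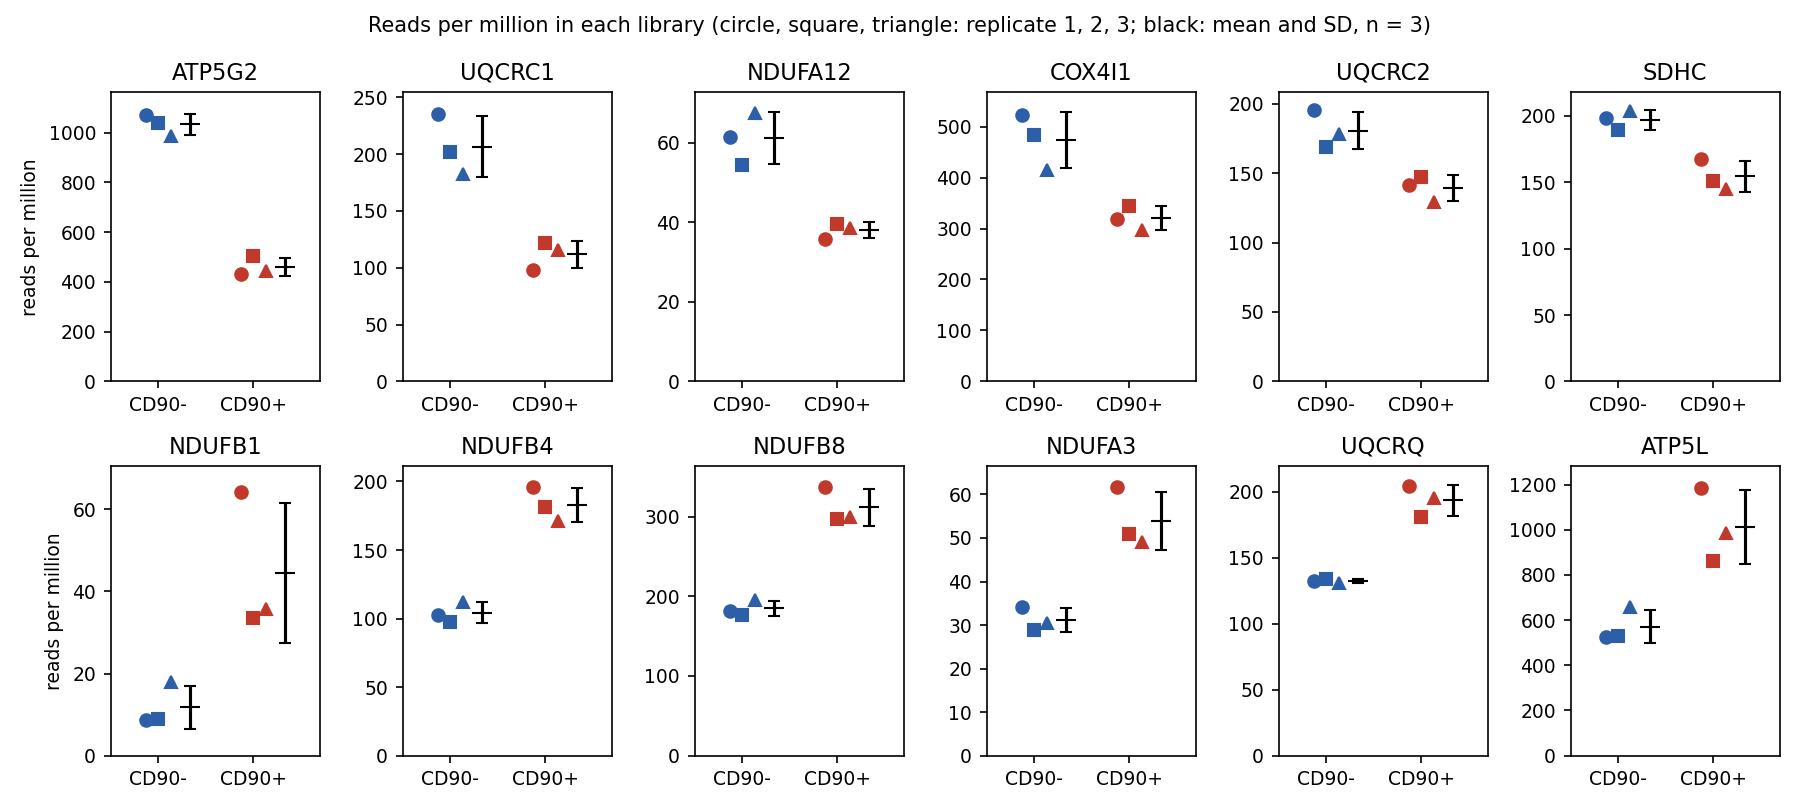
RPM (y axis, from 0) of 12 respiratory chain genes in the 3 HuCCT1/CD90- libraries (blue) and the 3 HuCCT1/CD90+ libraries (red), with mean and SD in black. In each panel the 2 lines do not overlap, and NDUFB1 runs from 33.4 to 64.2 in HuCCT1/CD90+.

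Of the 8 genes of complex III, 1 was higher and 2 were lower. UQCRC1 and UQCRC2 encode the core proteins, which face the matrix and descend from a processing peptidase. UQCRC1 was at 236, 201 and 182 RPM in HuCCT1/CD90- and at 98.4, 121 and 116 RPM in HuCCT1/CD90+, a ratio of 0.542. The log2 difference was -0.88 ± 0.13 (adjusted p = 0.0176, blocked adjusted p = 0.0992, up to 0.0647 with a library left out), and -0.64 remained after centring on its neighbours (adjusted p = 0.0446). UQCRC2 fell from 181 ± 13.4 to 139 ± 9.06 RPM (-0.37 ± 0.08, adjusted p = 0.0391, blocked adjusted p = 0.110, up to 0.111 with a library left out), but its neighbours on chromosome 16 had a median of -0.38, and centring on them left 0.01 (adjusted p = 1).

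UQCRQ, a small subunit that binds next to cytochrome b, was higher. It was at 132, 134 and 131 RPM in HuCCT1/CD90- and at 204, 181 and 196 RPM in HuCCT1/CD90+. The log2 difference of 0.55 ± 0.05 (adjusted p = 0.00451) passed with the block and whichever library was left out, and was 0.53 after centring on neighbours. UQCRB, another small subunit, was at 18.3, 19.0 and 22.99 RPM against 70.0, 31.9 and 31.3 RPM. HuCCT1/CD90+ library 1 stood far above the other libraries, and the log2 difference of 1.01 ± 0.37 did not pass (adjusted p = 0.151). UQCR10 (0.53 ± 0.19), UQCR11 (0.14 ± 0.13), UQCRH (0.14 ± 0.18) and UQCRFS1, the Rieske iron-sulfur protein (0.32 ± 0.09, adjusted p = 0.0841), were not called either. All 5 subunits outside the core list had differences above 0, from 0.14 to 1.01.

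Complex IV, the cytochrome c oxidase, had 2 higher and 2 lower genes of 16. COX4I1, the largest nuclear subunit and the site of allosteric control by ATP, was at 523, 484 and 414 RPM in HuCCT1/CD90- and at 319, 344 and 297 RPM in HuCCT1/CD90+ (-0.56 ± 0.11, adjusted p = 0.0336, blocked adjusted p = 0.0534, up to 0.107 with a library left out). It lies on chromosome 16, and -0.37 was left after centring on its neighbours (adjusted p = 0.106) and -0.31 after centring on the chromosome (0.184). Its partner isoform of hypoxic lung, COX4I2, was listed at 0 in every library, so no switch between them could be measured. COX6A1 rose from 473 ± 33.5 to 595 ± 25.6 RPM (0.33 ± 0.06, adjusted p = 0.0334, blocked adjusted p = 0.0992, up to 0.102 with a library left out), and COX8A from 102 ± 11.98 to 138 ± 7.28 RPM (0.44 ± 0.10, adjusted p = 0.0473, blocked adjusted p = 0.102, up to 0.138 with a library left out). Both encode small structural subunits. COX8A stood among neighbours with a median of 0.31, and 0.13 was left after centring (adjusted p = 0.509).

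COX7A2, the form of subunit 7A found in most tissues, was called lower at the limit of detection. It had 8, 6 and 6 reads in HuCCT1/CD90- and 2, 3 and 3 reads in HuCCT1/CD90+ (adjusted p = 0.0243, blocked adjusted p = 0.121). Over the summed reads, 20 and 8, the ratio was 0.445 with an exact 95% interval from counting error of 0.170 to 1.06, which includes no difference. DESeq2 did not call it (adjusted p = 0.380).

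COX5A and COX5B, which flank the catalytic core on the matrix side, had log2 differences of 0.07 (95% interval -0.06 to 0.21) and -0.21 (-0.67 to 0.25), and COX5A passed only with the block (0.0329). COX7C (0.52 ± 0.16), NDUFA4 (0.50 ± 0.23), COX7B (0.49 ± 0.13), COX6B1 (0.48 ± 0.25) and COX6C (0.26 ± 0.20) were above 0 without being called. NDUFA4 was long counted with complex I and is now placed in complex IV. All of these but COX6C were called higher by edgeR, as were NDUFA1, NDUFV2, UQCR10, UQCRB and ATP5E, 9 genes in all. Of the isoforms of testis and of heart or skeletal muscle, COX7B2 was listed at 0, COX6A2 had 1 read in all and COX7A1 had 5, while COX6B2 was detected in every library at 3.44 ± 0.82 against 3.82 ± 0.99 RPM.

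**Figure D3:**
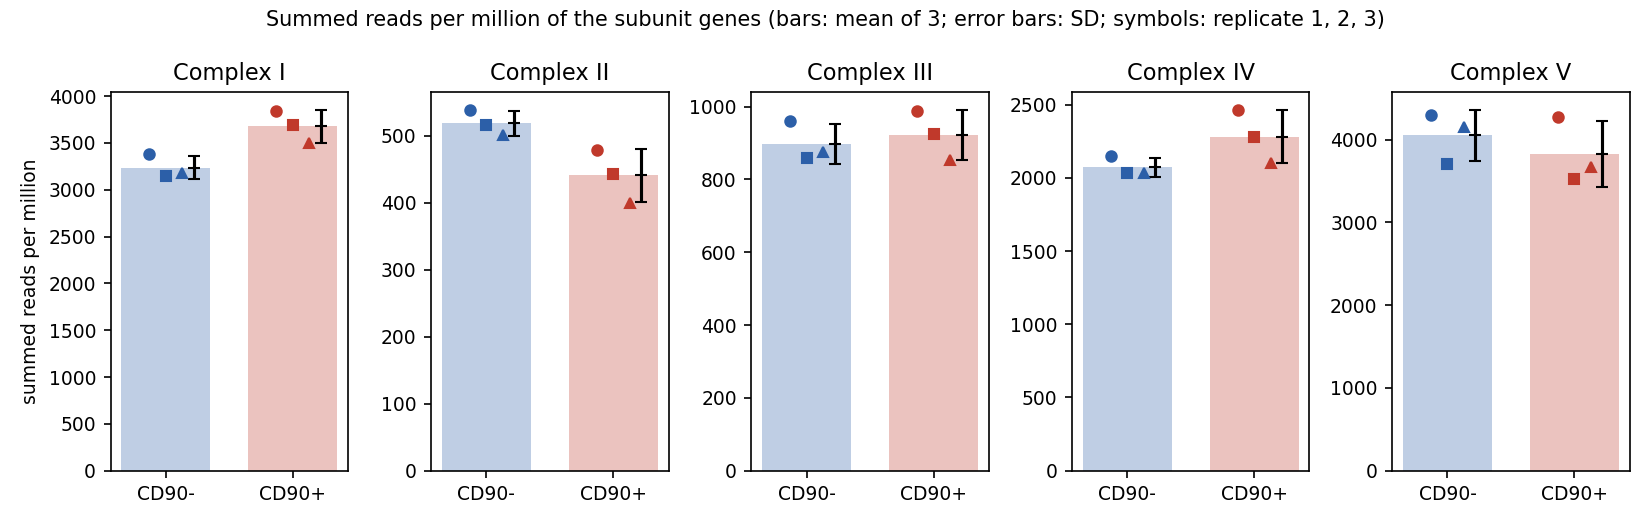
Summed RPM of the subunit genes of each complex (y axes from 0) per library, with bars for the mean of 3 libraries and error bars for SD. The libraries of the lines do not overlap for complex I (ratio 1.14, higher in HuCCT1/CD90+) and complex II (ratio 0.851, lower), and they overlap for complexes III, IV and V, although within same-numbered libraries complex IV is higher and complex V lower in all 3 pairs.

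Complex V held the largest fall. ATP5G2 was at 1071, 1041 and 988 RPM in HuCCT1/CD90- and at 433, 503 and 444 RPM in HuCCT1/CD90+, a ratio of 0.445. The log2 difference of -1.17 ± 0.07 (adjusted p = 0.00176) passed with the block and whichever library was left out, and -1.06 remained after centring on neighbours (adjusted p = 0.00223). ATP5G1, ATP5G2 and ATP5G3 encode the same mature subunit c, which forms the rotating ring, and differ in the targeting peptide that is cut off on import. ATP5G1 was at 99.0, 56.0 and 59.4 RPM against 73.3, 50.8 and 46.0 RPM (-0.31 ± 0.31, adjusted p = 0.601), and ATP5G3 at 208 ± 34.0 against 201 ± 23.4 RPM (-0.04 ± 0.15). Neither rose where ATP5G2 fell, although the interval for ATP5G1 (-1.14 to 0.52) is wide.

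Of the other subunits of the membrane part and the stalks, 2 were higher and 1 was lower. ATP5L, subunit g, was at 527, 531 and 657 RPM in HuCCT1/CD90- and at 1186, 863 and 985 RPM in HuCCT1/CD90+ (0.82 ± 0.16, adjusted p = 0.0338, blocked adjusted p = 0.101, up to 0.107 with a library left out). ATP5J2, subunit f, rose from 116 ± 24.3 to 212 ± 23.3 RPM (0.88 ± 0.19, adjusted p = 0.0447, up to 0.142 with a library left out) and passed with the block. Its neighbours on chromosome 7 had a median of 0.69, and 0.19 was left after centring on them (adjusted p = 0.618). ATP5J, the coupling factor F6 of the outer stalk, was at 7.68, 7.49 and 7.37 RPM against 5.36, 5.36 and 4.77 RPM (-0.47 ± 0.05, adjusted p = 0.00577). At these few reads the spread between libraries was narrow, and the call held with the block and whichever library was left out, but edgeR (adjusted p = 0.0673) and DESeq2 (0.139) did not make it.

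The 5 subunits of the F1 head, which makes ATP, were not called in either direction by limma, where at an unadjusted p under 0.05 it had 1 higher and 1 lower and edgeR and DESeq2 each called 1 higher. ATP5B, the catalytic beta subunit, was at 850, 612 and 731 RPM against 680, 541 and 555 RPM (-0.30, 95% interval -0.73 to 0.14). ATP5A1, the alpha subunit, had 0.15 (-0.69 to 1.00) with a wide spread, from 235 to 423 and from 300.4 to 492 RPM. ATP5C1, the gamma subunit of the rotor, had -0.23 (-0.62 to 0.16), ATP5D -0.29 (-0.50 to -0.08, adjusted p = 0.0727) and ATP5E 0.86 ± 0.27 (adjusted p = 0.112). Within same-numbered libraries ATP5B and ATP5D were lower and ATP5E was higher in every pair, and none of them passed with the block (0.0971, 0.0940 and 0.281). Summed over complex V, the libraries held 4294, 3708 and 4151 RPM against 4275, 3522 and 3673 RPM.

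Among the 9 genes that share the name without being subunits, 1 was called. ATP5S, a factor of the inner membrane that was once assigned to the ATP synthase, rose from 8.69 ± 0.38 to 14.7 ± 2.28 RPM (0.69 ± 0.12, adjusted p = 0.0267, blocked adjusted p = 0.0650, up to 0.0934 with a library left out). ATP5SL, an assembly factor of complex I, was at 60.3 ± 3.00 against 77.2 ± 7.61 RPM (0.35 ± 0.08, adjusted p = 0.0575). COX7A2L, which joins complexes III and IV in supercomplexes, had -0.26 ± 0.14. The paralogs and retrocopies NDUFA4L2, ATP5L2 and UQCRHL had -0.33 ± 0.48, -0.20 ± 0.17 and -0.03 ± 0.19, and UQCRHL, which is nearly identical to UQCRH, may share its reads. The pseudogene UQCRBP1 had at most 8 reads in a library, the antisense RNA NDUFB2-AS1 1 to 5 reads, and the pseudogene ATP5EP2 was listed at 0.

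In all, 6 genes had at most 3 reads in every library: ATP5EP2, COX4I2, COX7B2 and NDUFC2 were listed at 0, and COX6A2 and COX7A1 were near 0. NDUFC1, the other NDUFC gene, had 0, 2 and 0 reads in HuCCT1/CD90- and 4, 2 and 1 in HuCCT1/CD90+. NDUFC1, NDUFC2 and COX7A2 encode subunits found in most tissues, and with 1 amplicon per gene their low values say only that the amplicon gave few reads.

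The differences of the respiratory chain genes moved with those of their chromosomal neighbours. Over the 71 genes that averaged 10 RPM or more, the log2 difference of the gene and the median of its 50 nearest genes (none of them a respiratory chain gene) had a Pearson r of 0.605 and a Spearman rho of 0.685. Over 8617 other genes these were 0.241 and 0.361. This is a description, since genes near each other share neighbours. Whole chromosomes differed between the lines, from a median of 0.52 on chromosome 7 (402 genes) to -0.32 on chromosome 1 (956 genes), with -0.30 on chromosomes 6 and 16. All 5 respiratory chain genes on chromosome 7 were above 0, as were all 6 detected on chromosome 11, while 6 of 7 on chromosome 1 and all 3 detected on chromosome 16 were below 0.

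**Figure D4:**
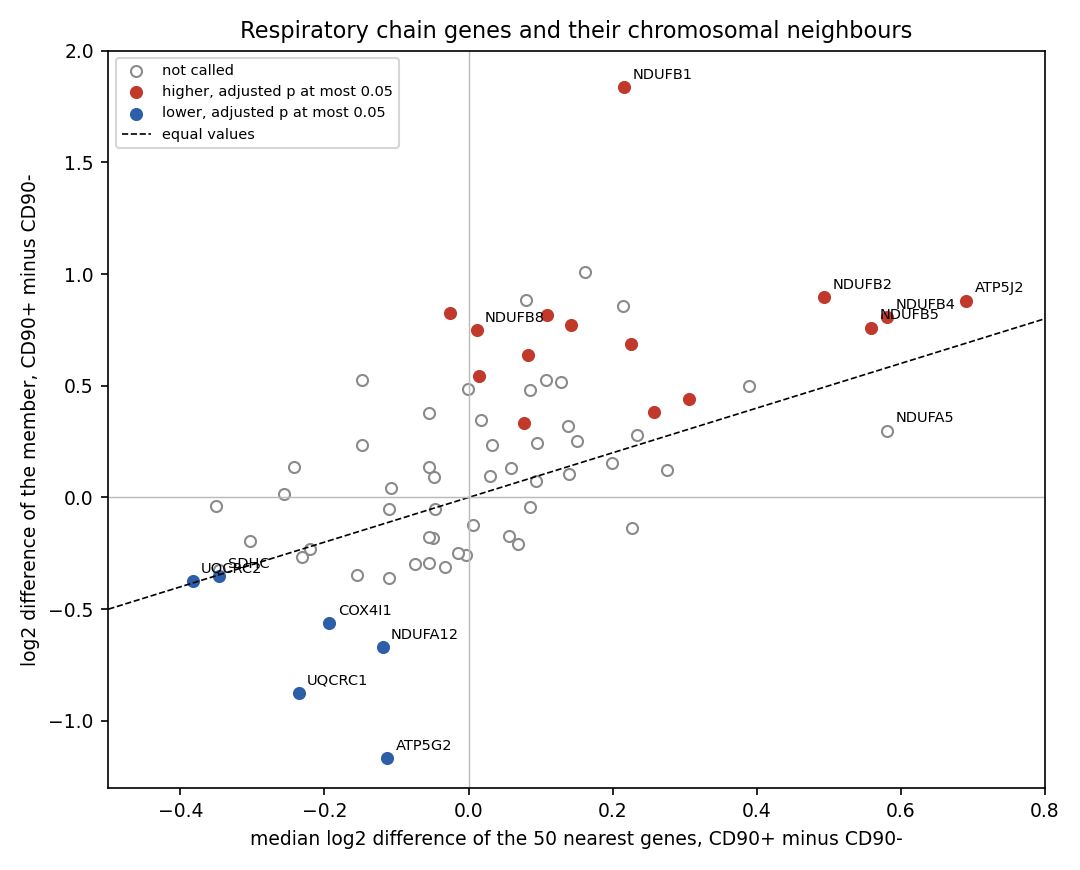
Log2 difference of 71 respiratory chain genes (y axis) against the median log2 difference of the 50 nearest genes on the same chromosome (x axis), both HuCCT1/CD90+ minus HuCCT1/CD90-, with a dashed line of equal values. SDHC and UQCRC2 lie on the line at -0.35 and -0.37, whereas ATP5G2 (-1.17) and NDUFB1 (1.84) lie far from it.

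After centring on neighbours, a step added after the data were seen, 5 genes were higher and 5 lower by adjusted p, and 9 of the 23 calls were kept. Genes that averaged under 1 RPM were left uncentred, here and in the chromosome centring below. COX7A2 was such a gene, among neighbours with a median of -0.37. It is counted with the lower genes and the kept calls although its value was not centred. Besides those named above, the calls of NDUFB1 (1.62, adjusted p = 0.0699), ATP5L (0.71, 0.0543), NDUFA9 (0.55, 0.0690), COX6A1 (0.26, 0.0719) and ATP5S (0.46, 0.0804) were lost by it. Centring each chromosome on its own median gave 8 and 6 (9.09% and 6.82%, where 8.25% and 8.51% of all genes were). Fewer genes of the whole table were called after either centring too. ATP5G2, UQCRC1, NDUFB8 and UQCRQ kept adjusted p-values of at most 0.05 with the neighbours removed. The cause of the chromosomal differences was not tested.

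Many subunits are short proteins with short transcripts, so the differences were also set against the median length of the annotated transcripts of each gene. Over the 71 genes, the Spearman rho of length and log2 difference was -0.17, and over 8528 genes of the table it was -0.07. The 7 respiratory chain genes with a median length under 500 bases had a median log2 difference of 0.48, where all 75 genes of that length had -0.15. The 47 with 500 to 1000 bases had 0.14 against 0.07 for 2166 genes, and the 17 longer ones 0.09 against -0.01 for 6287 genes. Set against the mean of HuCCT1/CD90-, HuCCT1/CD90+ libraries 1, 2 and 3 had median differences over the 71 genes of 0.18, 0.19 and 0.05. The part of transcript length and of these library differences in the results was not tested.

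Genes of the pathway outside the name rule were counted in lists by function. By limma 9.41% of all genes were higher and 9.52% lower, and of those that averaged 10 RPM or more 14.3% and 14.1%. With the block the shares of all genes were 6.72% and 6.4%, and after centring on neighbours 7.83% and 8.13%. Of the genes tested, edgeR called 22.2% higher and 22.2% lower, and DESeq2 19% and 18%. The list counts are a description to be read beside these shares. Of 46 assembly factors found in the table, 10 were higher and 2 lower. COX17, a copper chaperone of complex IV, rose from 45.7 ± 8.24 to 155 ± 30.6 RPM (log2 difference 1.74, adjusted p = 0.00951), and ACN9, an assembly factor of complex II, from 7.67 ± 2.13 to 23.8 ± 1.495 RPM (1.54, adjusted p = 0.0105, blocked adjusted p = 0.0583). TMEM126B, of the membrane arm of complex I, had 0.87 (adjusted p = 0.00936, blocked adjusted p = 0.0528), and COX19 0.87 (0.0260, blocked adjusted p = 0.104). With the block the list held 6 higher and 2 lower genes, and after centring on neighbours also 6 and 2, against 16 and 2 with edgeR and with DESeq2. COX17, TIMMDC1 and ACAD9 lie on chromosome 3 and ACN9, COX19 and COA1 on chromosome 7, among neighbours with medians of 0.38 to 0.65.

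Of the 6 subunits and carriers named outside the rule and found in the table, C14orf2, a small proteolipid of complex V, was higher (442 ± 34.6 against 615 ± 28.4 RPM, 0.48, adjusted p = 0.0176, blocked adjusted p = 0.0903), where edgeR and DESeq2 each called 3 higher. Of 70 genes of the mitochondrial ribosome, 7 were higher and 3 lower, with a median of 0.11. MRPL3 (1.01), MRPS17 (0.85) and MRPL15 (0.82) had the largest rises and MRPL9 (-0.52) the largest fall, none of these 4 passing with the block (0.129, 0.0913, 0.113 and 0.0608), and there were 5 higher and 2 lower genes with the block and 1 and 3 after centring on neighbours, against 12 and 6 with edgeR and with DESeq2. Of 19 regulators of mitochondrial biogenesis, 2 were higher and 1 was lower. PPARGC1A, a coactivator that drives mitochondrial gene expression, was at 51, 36 and 78 reads in HuCCT1/CD90- and at 10, 7 and 9 reads in HuCCT1/CD90+ (5.42 ± 1.93 against 0.955 ± 0.130 RPM, -1.68, adjusted p = 0.0142, blocked adjusted p = 0.0525). SLIRP, which stabilizes mitochondrial mRNA, had 1.00 (blocked adjusted p = 0.104), and POLG, the mitochondrial DNA polymerase, 0.39 (0.0570). This list held 1 higher gene with the block (ESRRA, 0.70, adjusted p = 0.0588, blocked adjusted p = 0.0202, named after its values were seen) and 0 lower, and 5 higher and 4 lower with edgeR and with DESeq2.

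Of 24 genes of pyruvate dehydrogenase and the citric acid cycle, 2 were higher and 0 lower (5 and 3 at an unadjusted p under 0.05, 5 and 2 with edgeR and with DESeq2, 0 and 1 with the block). The higher genes were MDH2 (0.91) and OGDH (0.58), both on chromosome 7 among neighbours with medians of 0.62 and 0.58, and neither passed with the block (0.0584 and 0.0579). The lower gene with the block, named after its values were seen, was FH, the fumarase (-0.62, adjusted p = 0.113, blocked adjusted p = 0.0191). Of 32 genes of protein import and cristae, 6 were higher and 1 lower, led by DNAJC19 (0.81), OPA1 (0.80, blocked adjusted p = 0.0911), TOMM20 (-0.71, 0.0848) and TIMM8B (0.63), with 3 higher and 0 lower with the block, 2 and 0 after centring on neighbours, 9 and 1 with edgeR and 8 and 1 with DESeq2. Of 18 carriers of the inner membrane, 5 were higher and 0 lower, in limma also at an unadjusted p under 0.05, in edgeR and in DESeq2, and there were 5 and 0 after that centring and 3 and 0 with the block. UCP2, an uncoupling protein, rose from 12.5 ± 1.499 to 37.8 ± 4.57 RPM (1.52, adjusted p = 0.00363), MPC1, of the pyruvate carrier, from 9.42 ± 1.22 to 22.9 ± 3.43 RPM (1.20, adjusted p = 0.0105, blocked adjusted p = 0.0802) and SLC25A4, an ADP/ATP carrier, had 0.74, with SLC25A1, the citrate carrier, at 0.51.

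Most of the glycolysis genes were not called by limma, and those called were lower, where 9.52% of all genes were lower. Of 21, 0 were higher and 4 lower by limma (1 and 5 at an unadjusted p under 0.05): SLC16A3, which exports lactate (-0.75), ALDOA (-0.71), HK1 (-0.63) and ENO1 (-0.46). ENO1 lies on chromosome 1 among neighbours with a median of -0.60, and after centring on them it was at 0.14 (adjusted p = 0.499), while ALDOA, with a neighbour median of -0.32, was at -0.39 (0.0216). The median over the list was -0.01. After the centring 0 genes of the list were higher and 4 lower. With the block 2 were lower, SLC16A3 (0.0545) and ENO1 (0.171) having lost the call, and edgeR and DESeq2 each called 1 higher and 5 lower. Of 14 genes known to be induced by hypoxia, CA9 was lower (50.5 ± 7.86 against 12.1 ± 1.60 RPM, -1.98, adjusted p = 0.00310) and 0 were higher (3 higher and 2 lower at an unadjusted p under 0.05). With the block CA9 stayed lower and NDRG1, named after its values were seen, was higher (1.41, adjusted p = 0.0510, blocked adjusted p = 0.0183), and edgeR and DESeq2 each called 4 higher and 3 lower. Of 10 mitochondrial antioxidant enzymes 0 were called by limma (1 lower at an unadjusted p under 0.05), while edgeR and DESeq2 each called 1 lower. The difference between these lists and the respiratory chain genes was not tested.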

How the data were processed

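Total RNA of HuCCT1/CD90- and HuCCT1/CD90+ cells (3 libraries each) was amplified by the authors with the Ion AmpliSeq Transcriptome panel and counted per gene with the ampliSeqRNA plugin, and the counts were deposited as RPM values (hg19 in the submitters' processing notes). The positions of the amplicons are not given in the sources used here. The deposited values, given to the third decimal, lay within 0.00051 RPM plus 1e-06 of the value from a whole multiple of 1 read in 100% of cases, and these whole reads were recovered. Reads came from PCR without molecular identifiers, so floors of 3 reads and counting intervals cover counting error only.

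Log2(RPM + 1) of all 20811 genes was fitted with limma 3.58.1 (lmFit and eBayes, no block) in R 4.3.3, with Benjamini-Hochberg adjustment over all genes, and a fold change is on that scale, which understates low genes. Alternatives were edgeR 4.0.16 (quasi-likelihood, filterByExpr) and DESeq2 1.42.0 on the recovered reads, offsets of 0.1 and 5 RPM, minimum means of 1 and 10 RPM, quantile, median, chromosome and neighbour centring, trend and robust variance, subunits only, a fold change of 2, the replicate block and each library left out. Same-numbered libraries deviated together from the means of their lines (r = 0.209, 0.320 and 0.178, against -0.294 to 0.0706 for other pairs), so the numbers were taken to pair the libraries. For each gene the deviations of a line sum to 0, so positive values for some pairs push those of the others below 0. What the numbers mark is not given, and the pairing was not tested.

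The genes named are those called by adjusted p, the core subunits, isoform pairs, genes at or under 3 reads, genes that are not subunits and, in the other lists, up to 4 called genes with the largest differences that averaged 1 RPM or more, and others were named after their values were seen. Members, lists and rules were chosen with earlier results of these data known. Promoters and neighbours were taken by symbol from RefSeq (GRCh38.p14). Transcript lengths, and pseudogenes counted by name, were taken from GENCODE. Some genes are counted but not reported by name here.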

Additional observations from a re-analysis of the deposited data

How the results depend on the processing

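Of the 15 higher and 8 lower genes, counts moved by more than 1.5 times under some settings. Higher genes numbered 8 with chromosome centring, 8 with the replicate block, 5 with neighbour centring (chosen after seeing the data), and 24 with edgeR and with DESeq2, and 4 to 9 with a library left out. Lower genes numbered 5 with a minimum mean of 1 or 10 RPM, 3 with the replicate block, 5 with neighbour centring and 2 to 6 with a library left out. The 17 genes past the fold change and p-value thresholds were 11 with chromosome centring, 9 with neighbour centring and 3 at a fold change of 2. Under the other settings run, these counts stayed within 1.5 times of those reported. The median log2 difference of 0.119 was 0.0575 with chromosome centring and 0.0782 without HuCCT1/CD90- library 3. Fewer samples were fitted where a library was left out, and fewer genes tested at a minimum mean, and otherwise the cause was not tested. UQCRC2 turned from -0.37 to 0.0101 with neighbour centring, the 1 reversal among 464 recomputed values of 26 genes.

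At this depth, genes with a few reads, such as COX7A2, NDUFC1 and NDUFB3, allow no statement on differences of less than about their counting error. With 1 amplicon per gene, isoforms and near-identical copies were not separated.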
